A study of Mus musculus with 4 samples.

Results

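The comparison described here sets 1 culture of mouse palatal mesenchymal cells that received the inhibitor SB431542 and TGF-beta2 against 1 culture that received TGF-beta2 alone. Its 2 arrays are those labelled with these treatments, out of 4 in the series, and the genes are all those whose probe sets carried 1 gene symbol and passed a filter on dim signals, 11744 of 18193. The cells were primary cultures from the secondary palate of outbred wild-type embryos at embryonic day 14, and all 4 cultures shared this origin. The culture with SB431542 was exposed to the inhibitor for 60 minutes and TGF-beta2 was applied for 120 minutes, and the TGF-beta2 culture had the same 120 minutes of TGF-beta2 without inhibitor. The other cultures were untreated, or treated with 5Z-7-Oxozeaenol (oxozeaenol below), an inhibitor of the Tak1 kinase, for 60 minutes and with TGF-beta2 for 120 minutes. Neither the inhibitor doses nor the number of embryos behind a culture is given in the sources used here. No array held SB431542 without TGF-beta2, so a response to the added ligand and to ligands the cells make themselves cannot be told apart. With 1 array a group there was no spread between replicates, no test was run, and every difference below is between single arrays.

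TGF-beta2 binds a type II receptor that recruits and phosphorylates the type I receptor Tgfbr1 (ALK5), a kinase that in turn phosphorylates Smad2 and Smad3. These enter the nucleus with Smad4 and act with partner factors such as AP-1 on target genes, among them genes for their own inhibitors. SB431542 blocks the kinase activity of Tgfbr1 and of its close relatives Acvr1b and Acvr1c, which serve activins and Nodal, and largely spares the BMP type I receptors that act through Smad1 and Smad5. In the palate, TGF-beta signalling in neural crest-derived mesenchyme is needed for growth and fusion of the palatal shelves.

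Values are array signals on a linear scale, whose mean as deposited was 500.0 on each array without the lowest and highest 2% of probe sets. Differences are log2(signal + 21.7), SB431542 with TGF-beta2 minus TGF-beta2 alone, where 21.7 is the 25th percentile of all signals. Folds are on the same scale and understate the difference of dim genes, and the filter corresponds to a signal of about 66.1. Medians of the 4 arrays lay between 66.3 and 72.7, and Pearson correlations of log2 levels across probe sets lay between 0.975 and 0.982. The 12 mesenchyme markers were all measured, with summed signals from 121109 to 132602, and only Pdgfra among them differed by 2-fold between the compared arrays. Of 12 macrophage and blood markers 10 were measured, with summed signals from 54203.6 to 64251 and differences between −0.10 and 0.15 between the compared arrays, so these cultures also held macrophage transcripts. Hba-a1 stayed at or below 25.8 on every array. Of 12 epithelium markers 10 were measured, with summed signals of 2390.1 with TGF-beta2 and 2372 with SB431542 against 6657 with oxozeaenol. Of the 12 endothelium markers 10 lay under the filter, and Kdr and Vwf passed it. The skeletal muscle list had 5 of 12 and the neural and glial list 3 of 12 members past the filter, none at least 2-fold apart. In RNA from whole cultures, fewer cells of a type and less RNA per cell cannot be told apart.

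The decreases with SB431542 of greatest size were in Fgf21, Egr2, Lif, Il11, Has2, Rasl11b and Wnt9a, and the increases of greatest size included Osr1, Rspo2, Id4 and Ccl3. Of the 11744 genes, 72 (0.613%) reached a 2-fold increase and 139 (1.18%) a 2-fold decrease, together 211 (1.80%), while 11533 lay within 2-fold. The median difference over all genes was 0.03 and 95% of genes lay between −0.72 and 0.67. At 4-fold, 4 genes were higher and 14 lower, so the lower side also held the greater sizes. The spread narrowed with brightness, with an interquartile range of 0.50 among the dimmest 2936 genes and 0.21 among the brightest 2936. The dimmest 2936 held 42 of the 72 higher genes and 49 of the 139 lower ones. The brightest 2936 held 5 higher and 21 lower genes. Genes just inside the size rule were Macroh2a3 and Zfp454 (both 1.01) and Pkp1 (−1.002) and Ier5 (−1.004), and just outside it were Nr2f1 (0.997), a nuclear receptor gene, and Olr1 (−0.999), a scavenger receptor gene.

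**Figure D1:**
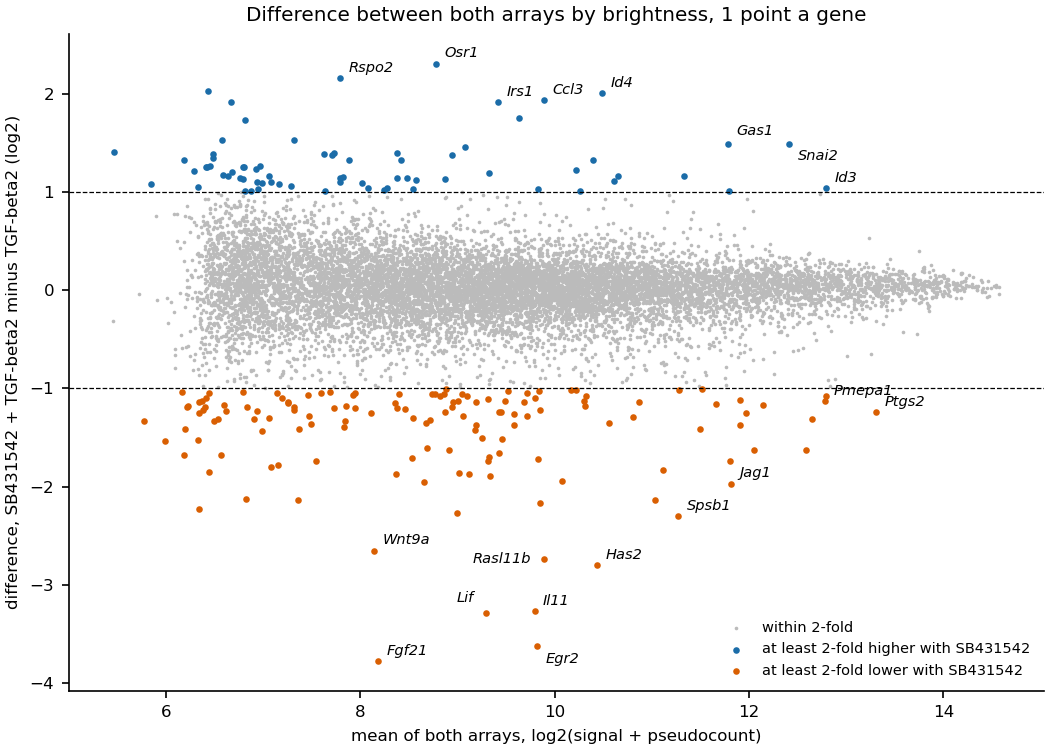
Each point is 1 of 11744 genes, with the mean log2 level of the TGF-beta2 and SB431542 arrays on the horizontal axis and their log2 difference on the vertical axis; dashed lines mark 2-fold. The cloud narrows to the right, and Fgf21, Egr2, Lif, Il11, Has2, Rasl11b and Wnt9a lie furthest below it.

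Fgf21, a hormone of the fibroblast growth factor family, had the largest decrease. Its signal was 111 untreated, 1055 with TGF-beta2, 57.2 with SB431542 and 251 with oxozeaenol, and the difference with SB431542 was −3.77, or 13.7-fold. The SB431542 array thus read the lowest of the 4 and lay under the filter level. Egr2, a zinc finger transcription factor, read 461 untreated, 3154 with TGF-beta2, 236 with SB431542 and 95.2 with oxozeaenol, a difference of −3.62. Both of its probe sets were lower, by −3.62 and −3.03.

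Rasl11b, which encodes a small Ras-like GTPase, and Wnt9a, a Wnt ligand, were also among the largest decreases. Rasl11b read 454 untreated, 2424 with TGF-beta2, 345 with SB431542 and 2302 with oxozeaenol, a 6.66-fold decrease with SB431542 and a difference of −0.07 with oxozeaenol. Wnt9a read 173, 687, 91.3 and 654 in the same order, a 6.27-fold decrease with SB431542 and again −0.07 with oxozeaenol. For both genes the 2 arrays with high signals were TGF-beta2 alone and oxozeaenol with TGF-beta2. Doses are not given, so the inhibitors are set side by side here and not compared.

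Spsb1, a substrate adaptor of an E3 ubiquitin ligase, read 2117 untreated, 5467 with TGF-beta2, 1096 with SB431542 and 2777 with oxozeaenol. This was a 4.91-fold decrease with SB431542, to the lowest level of the 4 arrays, and its other probe sets differed by −1.94 and −0.43. Rnf19b, which encodes a ubiquitin ligase of the RBR type, read 648, 2091, 530.2 and 183 in the same order, a difference of −1.94 with SB431542. Slco4a1, an organic anion transporter gene, read 428, 769.7, 183 and 109, a difference of −1.95. Fam110c (−1.87), Mtcp1 (−1.87) and the uncharacterised AI504432 (−2.13) were also among the 20 largest decreases. Mdfi, an inhibitor of myogenic factors, and Abtb1 had single probe sets that read 15.9 and 24.1 with SB431542, below or near the pseudocount of 21.7, which limits the size these differences can show.

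Osr1, an odd-skipped transcription factor gene expressed in the palatal shelves, had the largest increase. It read 496 untreated, 176 with TGF-beta2, 953 with SB431542 and 667 with oxozeaenol, a 4.94-fold increase with SB431542 to the highest level of the 4 arrays. Irs1, an adaptor of the insulin receptor, read 1073, 331, 1303 and 1781 in the same order, a difference of 1.91. Ahr, the ligand-activated aryl hydrocarbon receptor, read 1210.3 untreated, 410.3 with TGF-beta2, 1435 with SB431542 and 367 with oxozeaenol. Its difference was 1.75 with SB431542 and −0.15 with oxozeaenol, so the TGF-beta2 and oxozeaenol arrays were alike for Ahr and the other arrays higher.

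The chemokine gene Ccl3 read 2646 untreated, 466 with TGF-beta2, 1838 with SB431542 and 201 with oxozeaenol, a difference of 1.93. Ccl4, its neighbour in the same chemokine family, read 1597, 760.3, 1801 and 194 in that order, a difference of 1.22. Macrophages are a known source of both chemokines, and the macrophage markers given above differed by at most 0.15 between the compared arrays. Which cells made these chemokine transcripts was not tested. Pparg, a nuclear receptor of fat cell differentiation, read 209, 109, 324 and 303, a difference of 1.40. Pdk4, a kinase that inhibits pyruvate dehydrogenase, read 243, 101, 298 and 156, a difference of 1.38. Cdc42ep2, an effector of the GTPase Cdc42, differed by 1.37. Of the 20 largest increases, 6 had a TGF-beta2 signal under the filter level, namely H2-Eb2, Mm2pr, Spaca3, Nxpe3, Krtdap and Vars2. Their signals with TGF-beta2 lay between 5.57 and 40.3, each from 1 probe set. Krtdap also lay under the filter level untreated (12.1) and with SB431542 (50.4). It passed the filter only through the oxozeaenol array, at 951.

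**Figure D2:**
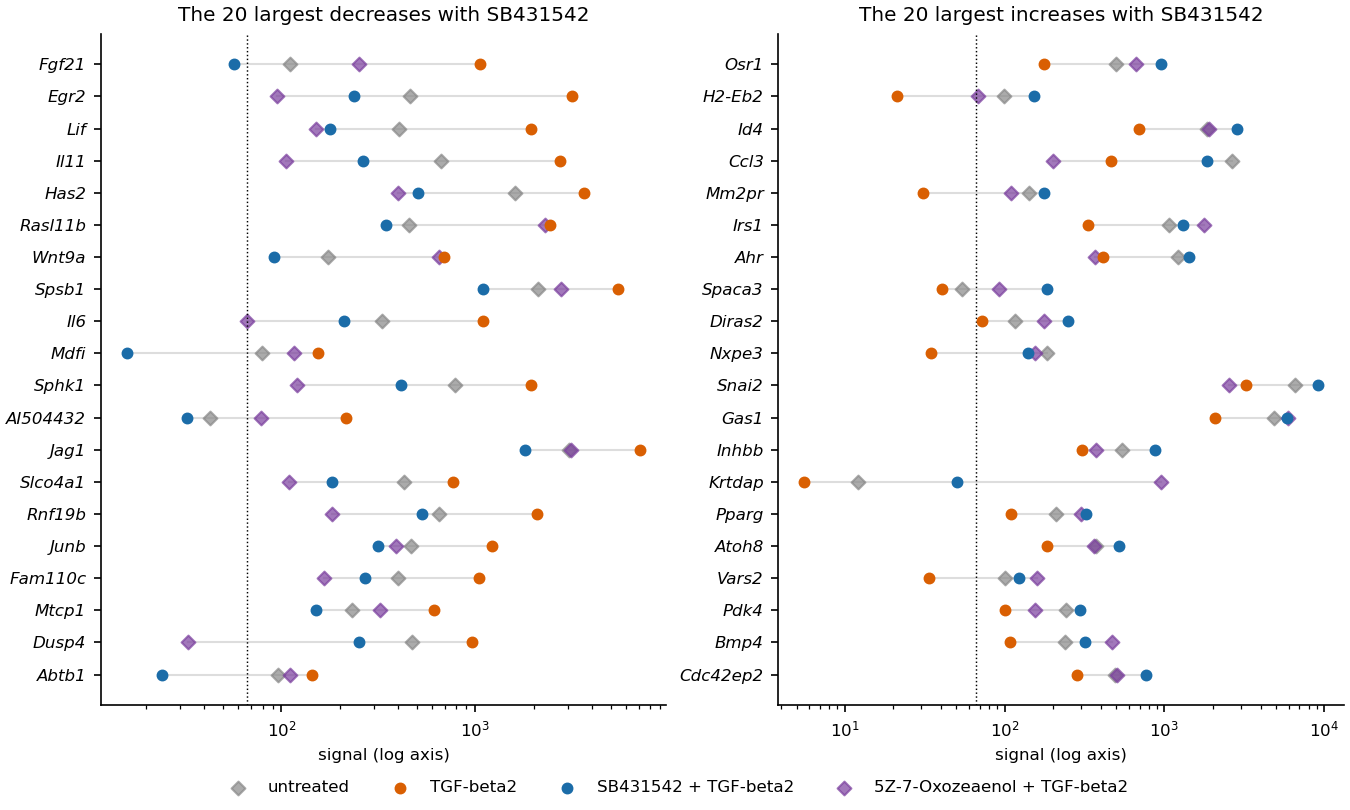
Each row is a gene and each symbol its signal on 1 array (log axis), for the 20 largest decreases (left) and increases (right) with SB431542 among genes whose probe sets differed in the same direction; the dotted line marks the filter level of 66.1. On the left the TGF-beta2 array is the highest of the 4, as for Fgf21 at 1055, and on the right it is mostly the lowest, as for Osr1 at 176. The genes were picked for their difference between the TGF-beta2 and SB431542 arrays, which favours both patterns.

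Along the pathway itself, few transcripts were 2-fold apart. Of 12 measured genes for TGF-beta and activin ligands, their latent binding proteins and antagonists, 1 was at least 2-fold higher, 1 lower and 10 in between, and the median was −0.07 against 0.03 over all genes. Shares among the 11744 genes were 0.613% on the higher side and 1.18% on the lower side. Inhbb, a subunit of activin B, read 541 untreated, 305 with TGF-beta2, 874 with SB431542 and 372 with oxozeaenol, a difference of 1.45, although its other probe set differed by 0.40. Fstl3, a secreted antagonist that binds activins, read 454, 737, 326 and 550.2, a difference of −1.13. Transcripts of the ligand genes Tgfb1 (−0.56), Tgfb2 (0.17) and Tgfb3 (−0.07) and of the activin A subunit gene Inhba (−0.43) lay within 2-fold. The latent binding protein gene Ltbp3, counted within 2-fold, differed by −0.43 in its brightest probe set. Its 4 probe sets lay between −1.27 and −0.43.

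All 12 measured receptor genes lay within 2-fold, with differences from −0.83 to 0.70 and a median of −0.12, where 1.80% of all genes were 2-fold apart. Among the type I receptors that SB431542 blocks, Tgfbr1 differed by −0.63, Acvr1b by −0.03 and Acvr1c by 0.23. The type II receptor gene Tgfbr2 differed by 0.42, and Tgfbr3, the co-receptor betaglycan, by 0.70. Acvr1, a BMP type I receptor gene, differed by −0.83. The 9 measured Smads and partners were also within 2-fold, between −0.19 and 0.29. Smad2 and Smad3, which carry the signal, both differed by 0.29, and Smad4, their common partner, by −0.13.

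Among feedback inhibitors of Smad signalling, Skil, Pmepa1 and Ldlrad4 were lower. Of the 13 measured genes, these 3 reached 2-fold and 10 did not, where 1.18% of all genes were lower, and the median was −0.25. Skil, which encodes the corepressor SnoN, read 2821 untreated, 4677 with TGF-beta2, 1749 with SB431542 and 2921 with oxozeaenol, a difference of −1.41. Its second, dimmer probe set differed by −0.28. Pmepa1, a membrane protein that sequesters Smads from the receptor, read 7599, 10413, 4746 and 4329, a difference of −1.13. All 3 of its probe sets were past 2-fold, with −1.13, −1.50 and −1.73. Ldlrad4, a relative of Pmepa1 with the same action, read 277, 347, 119 and 137, a difference of −1.39. For these 3 genes the SB431542 array also read lower than the untreated one, which their choice for a low SB431542 signal favours. Smad7, the inhibitory Smad that competes at the receptor, differed by −0.91 and −0.93 in its 2 probe sets, and Smurf1, a ubiquitin ligase that acts with Smad7, by −0.72, both within 2-fold. These 2 genes were named after their values had been seen.

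Of 33 measured early Smad target genes, 7 were at least 2-fold lower, 3 higher and 23 within 2-fold, with a median of −0.11, where 1.18% of all genes were lower and 0.613% higher. Jag1, a ligand of Notch receptors, read 3056 untreated, 7117 with TGF-beta2, 1803 with SB431542 and 3116 with oxozeaenol, a difference of −1.97, and of its other probe sets 1 differed by −1.29 and the dimmest, at 83.8 and 83.5, was level. Sphk1, a sphingosine kinase gene, read 789.9, 1928, 414 and 119.6, a difference of −2.16, with −0.38 in its second probe set. Junb (−1.89), a subunit of AP-1, Bhlhe40 (−1.74), a basic helix-loop-helix repressor, and Pdgfb (−1.37), a platelet-derived growth factor chain, were lower too, although the second probe set of Pdgfb differed by −0.17 and the median of both, −0.77, lay within 2-fold. Ets1 (−1.35) and Gadd45b (−1.25) were lower in their brighter probe sets, with dim probe sets at or above 0. The 3 higher members were Snai2, Hey1 and Cited2. Snai2, a repressor active in mesenchymal cells, read 6599, 3238, 9145 and 2553, a difference of 1.49, and 1.54 in its second probe set. Cited2, a coactivator, read 3757, 2492, 5029 and 3232, with probe sets at 1.01 and 0.96. The brightest members of this list lay within 2-fold, among them Ccn2 (−0.02), Fn1 (0.05), Ldha (0.16) and Thbs1 (0.03). Signals of these genes lay between 12889 and 21733, and whether saturation limits such differences was not tested.

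Cytokines of the interleukin 6 family, which signal through the shared receptor chain gp130, were among the genes furthest apart. Of 12 measured members and their signalling partners, 4 were at least 2-fold lower and 8 were not, where 1.18% of all genes were lower. The list's median was −0.29 against 0.03 over all genes. Lif, leukaemia inhibitory factor, read 404 untreated, 1931 with TGF-beta2, 179 with SB431542 and 150.2 with oxozeaenol, a difference of −3.28. Il11, interleukin 11, read 663, 2736, 265 and 105, a difference of −3.27. Il6 read 331, 1095, 210.3 and 66.3, a difference of −2.27. For each of these the TGF-beta2 array was the highest and the SB431542 array lay below the untreated one. Picking genes for their difference between the compared arrays favours this order. Clcf1, cardiotrophin-like cytokine factor, differed by −1.01, with its other probe sets at −0.74 and 0.01. The receptor genes Il6st (0.28), which encodes gp130, and Osmr (−0.12), and Stat3 (−0.30), the factor downstream of gp130, were within 2-fold, so the 2-fold differences were in the ligands.

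The promoter windows of 3 of these ligand genes are shown because Lif, Il11 and Il6 were lower together and each window holds the AP-1 motif TGANTCA. Of 20 eligible genes of the Smad feedback, early target, interleukin 6 and Id lists, 11 had a window that could be used. Windows run from 250 bases before to 50 bases after an annotated start and come from RefSeq on GRCm38.p6. Il11 lies at chr7:4778092-4778391 on the minus strand and is 1 of 2 annotated windows of the gene, Lif at chr11:4257318-4257617 on the plus strand and Il6 at chr5:30012864-30013163 on the plus strand. Capitals mark the AP-1 motif and, in Il6, also a match to the Smad motif CAGACA, read as TGTCTG on this strand.
Il11: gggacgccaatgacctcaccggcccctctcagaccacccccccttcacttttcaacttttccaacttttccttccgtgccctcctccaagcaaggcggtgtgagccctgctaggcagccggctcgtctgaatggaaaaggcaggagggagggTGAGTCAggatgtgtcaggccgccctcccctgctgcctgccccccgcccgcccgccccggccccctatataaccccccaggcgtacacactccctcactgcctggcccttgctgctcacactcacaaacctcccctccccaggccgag
Lif: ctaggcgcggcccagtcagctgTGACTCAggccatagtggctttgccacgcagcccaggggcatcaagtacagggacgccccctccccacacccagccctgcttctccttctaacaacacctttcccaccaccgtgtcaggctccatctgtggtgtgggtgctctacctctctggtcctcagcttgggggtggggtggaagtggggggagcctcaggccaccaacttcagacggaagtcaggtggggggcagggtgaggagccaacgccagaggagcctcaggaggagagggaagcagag
Il6: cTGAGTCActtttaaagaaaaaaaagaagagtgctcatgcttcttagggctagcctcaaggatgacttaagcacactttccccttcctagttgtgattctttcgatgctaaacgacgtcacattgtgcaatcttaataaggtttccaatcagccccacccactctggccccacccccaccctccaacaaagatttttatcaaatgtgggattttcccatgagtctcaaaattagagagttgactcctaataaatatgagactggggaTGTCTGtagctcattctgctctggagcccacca
The AP-1 motif starts 98 bases before the annotated start in Il11, 228 in Lif and 249 in Il6, and the other Il11 window holds none of the motifs searched.

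Both strands were searched for 5 motifs, TGANTCA (AP-1), CAGACA (Smad), GTCTAGAC (a Smad palindrome), GGCGCC (bound by BMP-responsive Smads) and TGACGTCA (the cyclic AMP response element). TGANTCA was found in 7.81% of all 32851 promoter windows and in 5.42% of the 12219 windows of measured genes. It was found in 17 of 141 windows (12.1%) of genes at least 2-fold lower and in 4 of 70 windows (5.71%) of genes at least 2-fold higher. CAGACA was in 21.0% of all windows, 16.2% of those of measured genes, 23.4% for lower genes and 28.6% for higher genes, so its share was highest among the higher genes. GTCTAGAC was in 0.213% of all windows and in no window of a gene 2-fold apart. GGCGCC was in 11.9% of all windows, 20.9% for measured genes, 18.4% for lower and 12.9% for higher genes. TGACGTCA was in 1.79%, 2.95%, 2.84% and 4.29% in the same order. Several windows can belong to 1 gene and overlap, these shares were not tested, and a match to letters is not a binding site.

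Growth factor genes of other families showed single strong members. Of 9 measured genes of the EGF receptor list, Hbegf and Errfi1 were at least 2-fold lower and 7 were not, and the median was −0.35. Over all genes, 1.18% were at least 2-fold lower and the median was 0.03. The list's median was −0.20 without the filter, −0.24 with the pseudocount at the median of all values and −0.84 with the filter at the 75th percentile. Egfr, named after its values had been seen, was counted within 2-fold at −0.20, but its 5 probe sets lay between −0.26 and 1.06. Hbegf, a membrane-anchored ligand of the EGF receptor, read 4733 untreated, 10779 with TGF-beta2, 3488 with SB431542 and 639.5 with oxozeaenol, a difference of −1.62, with −1.59 in its second probe set. Errfi1, an intracellular inhibitor of the receptor, differed by −1.17. Of 22 other growth factor genes 3 (Fgf21, Vegfa and Pdgfb) were at least 2-fold lower and 19 within that range, with 11 genes on each side of 0. Vegfa, the main angiogenic factor, read 2854, 7433, 2397 and 1783, with probe sets at −1.62 and −0.94. The brightest others, Igf2 (0.18), Csf1 (−0.01), Pdgfc (−0.41) and Igf1 (0.13), were within 2-fold.

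Of 23 measured Wnt genes, 3 were lower and 1 higher by the 2-fold rule, where 1.18% and 0.613% of all genes were. The median was −0.09. Beside Wnt9a, the lower ones were Lef1 (−1.20), a nuclear effector of Wnt signalling that read 119 with SB431542, and Wnt11 (−1.04), a ligand that read 275 with TGF-beta2 and 123 with SB431542. Rspo2, a secreted enhancer of Wnt signalling, read 201 untreated, 83.5 with TGF-beta2, 447 with SB431542 and 954 with oxozeaenol, a difference of 2.16. Its second probe set, which read 105 and 103 on the compared arrays, differed by −0.02, so the probe sets of Rspo2 disagreed. Of 11 measured Notch pathway genes Jag1 and Nrarp were lower and Hey1 higher. Of 8 Hedgehog genes Gas1 was higher and 7 within 2-fold. Gas1, a membrane co-receptor for Hedgehog ligands, read 4819.9, 2082, 5887 and 5925, with probe sets at 1.49, 1.56 and 0.89.

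**Figure D3:**
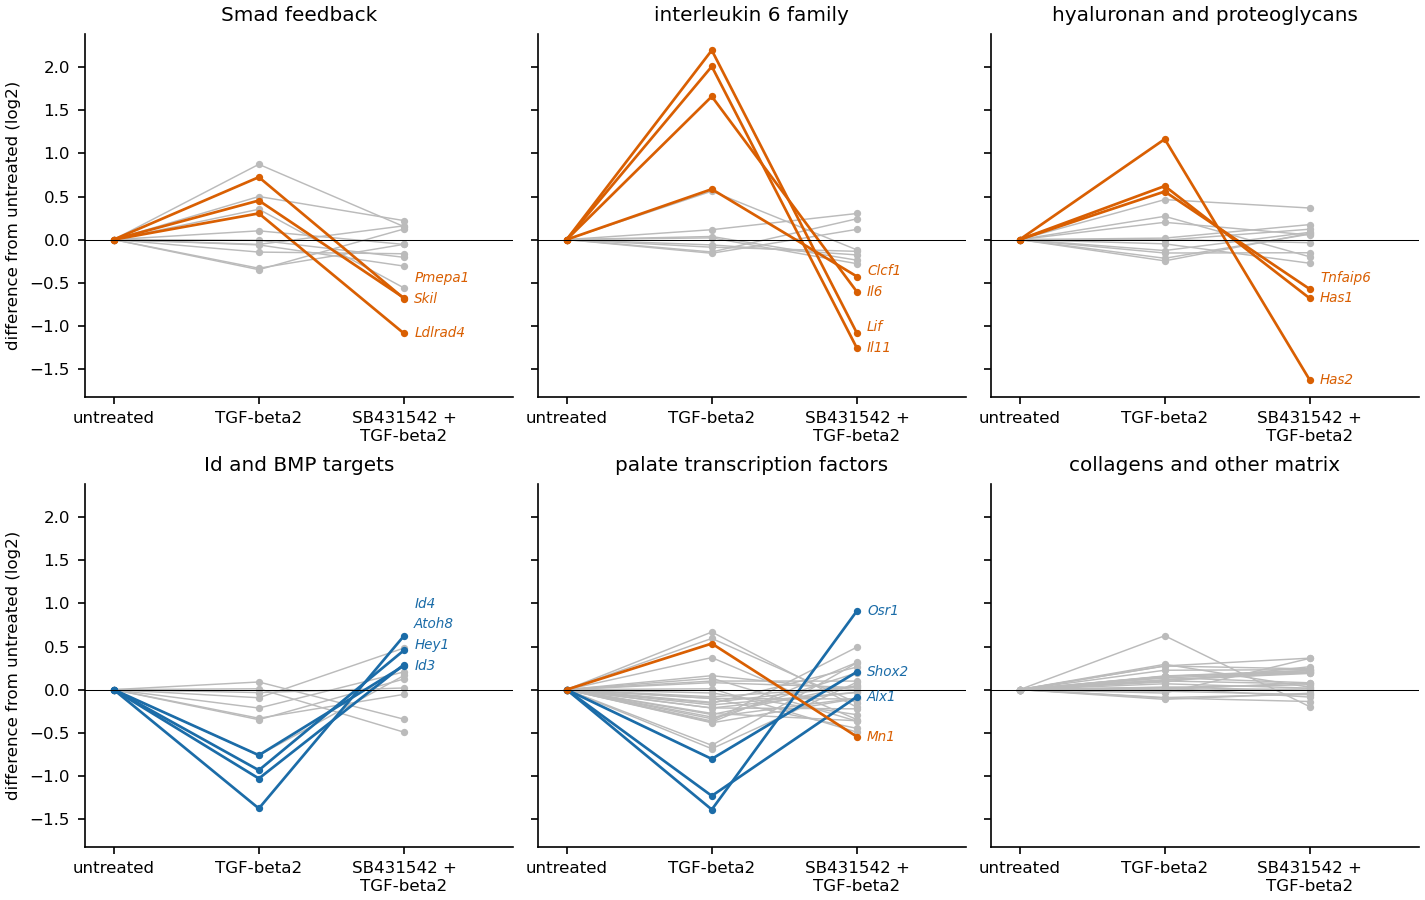
Each line is 1 measured gene of a list, drawn as its log2 difference from the untreated array on the untreated, TGF-beta2 and SB431542 arrays; coloured lines are genes at least 2-fold lower (orange) or higher (blue) with SB431542 than with TGF-beta2 alone, and Hey1 is 1 of the 4 blue lines of the Id and BMP panel. Lif, Il11 and Il6 peak on the TGF-beta2 array, Id4 and Osr1 have their lowest point there, and the collagen panel stays near 0. Every point is set against the same untreated array. The coloured genes were picked for their difference between the TGF-beta2 and SB431542 arrays, which favours such peaks and low points.

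In the list of Id and BMP target genes, Id4, Atoh8, Hey1 and Id3 were higher with SB431542. Of 12 measured members, these 4 were at least 2-fold higher, none lower and 8 within 2-fold, where 0.613% of all genes were higher, and 10 of the 12 lay above 0. The median was 0.52 against 0.03 over all genes. Id4, an inhibitor of basic helix-loop-helix factors, read 1848 untreated, 697 with TGF-beta2, 2859 with SB431542 and 1909 with oxozeaenol, and its 3 probe sets differed by 2.003, 1.52 and 0.9996. Id3, of the same family, read 8378, 4935, 10158 and 6289.6, a difference of 1.04, and Id1 and Id2 differed by 0.93 and 0.05. Atoh8, a basic helix-loop-helix factor, read 373, 185, 519.6 and 365, a difference of 1.39. Hey1, a repressor downstream of Notch and BMP, read 419.8, 194, 518 and 498, a difference of 1.32. For all 4 genes past 2-fold the TGF-beta2 array was the lowest of the 4 and the SB431542 array the highest. These genes were picked for a higher signal with SB431542 than with TGF-beta2, which fixes the order of these arrays and favours this pattern. The inhibitory Smad6 differed by 0.47 and Msx1 by 0.58, while Msx2 (−0.43) and Dlx5 (−0.50), named after their values had been seen, lay below 0. Bmp4, a BMP ligand gene, read 239, 109, 317 and 470.0, a difference of 1.37, and was the 1 member at least 2-fold apart of 10 BMP ligands and antagonists, whose median was −0.30. That median was −0.03 with the filter at the 75th percentile, and also where both arrays had to reach the filter level, and −0.18 with the pseudocount at the median of all values. Bmp2, another BMP ligand gene named after its value had been seen, differed by −0.98.

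The Id4 window, at chr13:48260866-48261165 on the plus strand of GRCm38.p6 and also from RefSeq, is shown as the gene of this group furthest apart. Capitals mark its 1 match, GGCGCC, which starts 148 bases before the annotated start.
Id4: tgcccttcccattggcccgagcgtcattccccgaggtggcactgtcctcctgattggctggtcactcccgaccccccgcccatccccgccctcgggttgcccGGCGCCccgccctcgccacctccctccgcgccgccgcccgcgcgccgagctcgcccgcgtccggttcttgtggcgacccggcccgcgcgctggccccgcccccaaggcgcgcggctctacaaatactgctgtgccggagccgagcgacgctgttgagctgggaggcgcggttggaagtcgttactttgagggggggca
The windows of Id3, Atoh8, Junb, Jag1 and Gadd45b held none of the 5 motifs, and that of Cited2 held GGCGCC 178 bases before its start. Of the 5 windows of Sphk1, 2 that overlap held TGANTCA.

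Of 30 measured palatal and craniofacial transcription factor genes, 3 were at least 2-fold higher (Osr1, Alx1 and Shox2), 1 lower (Mn1) and 26 within 2-fold, with a median of 0.13. By the same rule, the higher share among the 11744 genes was 0.613% and the lower share 1.18%. Shox2, a homeobox gene needed for growth of the anterior palate, read 1487 untreated, 842 with TGF-beta2, 1718 with SB431542 and 2023 with oxozeaenol, with probe sets at 1.01 and 0.89. Alx1, a homeobox gene of facial mesenchyme, differed by 1.15 in 1 probe set and by −0.04 in the other. Mn1, a transcriptional regulator required for palate growth, read 1263, 1839, 858 and 2112, a difference of −1.08. The brightest members, Prrx1 (0.53) and Prrx2 (0.18), homeobox genes of craniofacial mesenchyme, were within 2-fold, and all 5 probe sets of Prrx1 lay between 0.50 and 0.86. Pdgfra, a receptor of platelet-derived growth factors and a mesenchyme marker, read 3643, 1704, 3835 and 3386, a difference of 1.16, while its 2 dimmer probe sets differed by 0.05 and −0.07.

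Of 14 measured hyaluronan and proteoglycan genes, Has2, Has1 and Tnfaip6 were at least 2-fold lower and 11 were not, where 1.18% of all genes were lower. The median was −0.07. Has2, the main hyaluronan synthase of embryonic mesenchyme, read 1606 untreated, 3631 with TGF-beta2, 503 with SB431542 and 400.1 with oxozeaenol, with probe sets at −2.80 and −2.07. Has1, a second synthase, read 115, 188, 63.4 and 112, a difference of −1.30. Tnfaip6, a hyaluronan-binding protein that modifies the matrix, read 1865, 2756, 1244 and 1732, a difference of −1.13. Hyaluronan swells the extracellular space of the palatal shelves and is tied to their elevation. The hyaluronan receptor gene Cd44 (−0.04) and the proteoglycan genes Bgn (0.16) and Fmod (−0.15) lay within 2-fold in their brightest probe sets. All 6 probe sets of Fmod lay below 0, from −1.68 to −0.15.

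In their brightest probe sets, all 25 measured collagen and other structural matrix genes, 20 matrix protease genes and 22 contractile genes lay within 2-fold. The medians were 0.03, 0.00 and 0.05, and 1.80% of all genes were 2-fold apart. Dimmer probe sets of Lox (−1.28), Loxl4 (1.12) and Itga5 (−1.24) were past 2-fold. Sparc (0.09), Col1a2 (0.07) and Col3a1 (0.09), which encode major matrix proteins, and Acta2 (0.02), smooth muscle actin, were among the brightest. Signals of these 4 genes lay between 16755 and 23233, near the upper end of the arrays at 24677, and whether saturation limits such differences was not tested. Plod2, a collagen lysine hydroxylase gene named after its value had been seen, was the lowest structural matrix gene at −0.82. Adamts5 (0.94) and Adamts1 (0.86), aggrecan-cleaving proteases also named after their values had been seen, were the highest of the protease list.

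Of 28 measured immediate early genes, 4 (Egr2, Junb, Egr3 and Ier5) were at least 2-fold lower and 24 within 2-fold, and 23 of 28 lay below 0, with a median of −0.57. Over all genes, 1.18% were at least 2-fold lower and 5258 of 11744 lay below 0. Egr1, the bright relative of Egr2, read 4389 untreated, 10257 with TGF-beta2, 5195 with SB431542 and 171 with oxozeaenol, a difference of −0.98 that missed the rule. Of 22 MAP kinase feedback genes Dusp4, Dusp5 and Errfi1 were lower and 19 stayed within 2-fold, and the median was −0.17. Dusp4, a nuclear MAP kinase phosphatase gene, read 470.3, 964, 250.03 and 32.9, a difference of −1.86. Dusp5, an ERK phosphatase gene, read 296, 927, 333 and 113, a difference of −1.42. On the oxozeaenol array, set against the same TGF-beta2 array, the medians of these lists were −1.13 and −1.33.

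In the remaining lists single genes stood out. Of 27 NF-kappaB and inflammatory genes, Il6 and Ptgs2 were lower and Ccl3 and Ccl4 higher, with a median of −0.02, and Ptgs2, an inducible prostaglandin synthase gene, read 15586 with TGF-beta2 and 6571 with SB431542. Of 16 insulin and IGF signalling genes Irs1 was higher and Foxo1, a transcription factor restrained by insulin signalling, was lower, with probe sets at −1.14, −1.65 and −0.72. Of 13 clock genes Bhlhe40 and Arntl were lower, and the second probe set of Arntl differed by 0.39. Of 21 small GTPase and Rgs genes Rasl11b was lower and Rgs3, a regulator of G-protein signalling, higher at 1.16, with its other probe sets at 1.55 and −0.30. Vegfa was the 1 of 17 hypoxia and glycolysis genes and Fgf21 the 1 of 19 Atf4 and ER stress genes at least 2-fold apart. Atf4, a factor of the amino acid response, and its target gene Psat1 (0.27) lay within 2-fold, as did all 12 interferon-stimulated genes, all 22 cell cycle genes and all 10 level controls. The level controls all lay slightly above 0, between 0.03 and 0.18. Across the 35 lists, 511 genes were measured, some in several lists, and 54 were at least 2-fold apart, 18 higher and 36 lower, where 1.80% of all genes were 2-fold apart. The lists were chosen with earlier results of these data known, so nothing is read from this count.

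**Figure D4:**
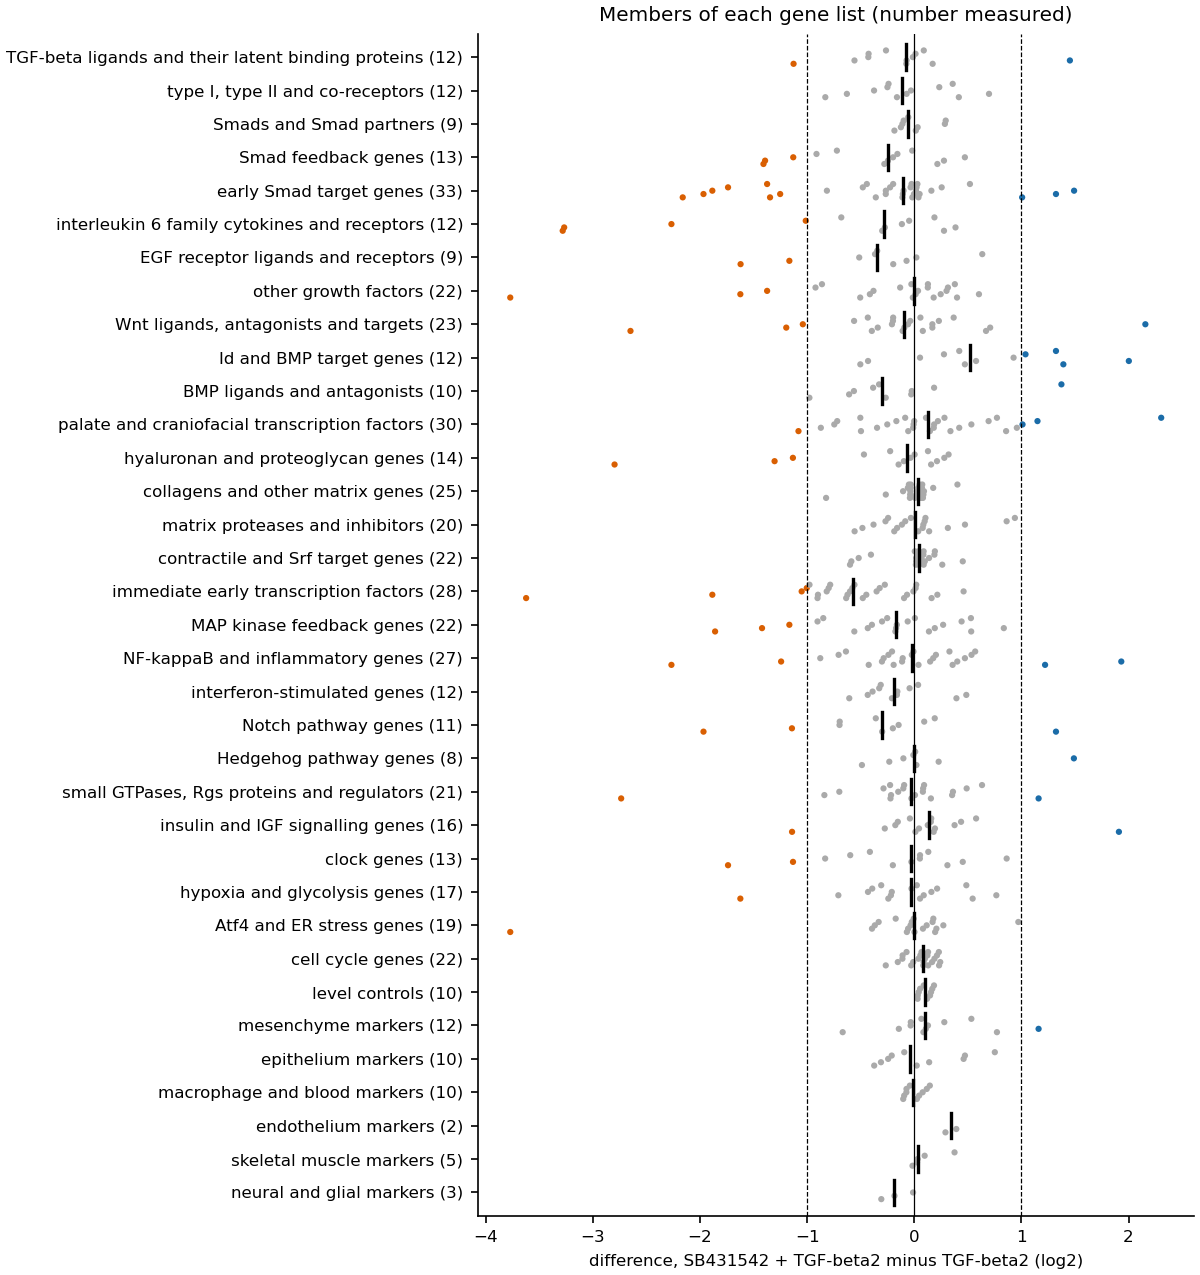
Each row is a gene list with its number of measured genes and each point a gene's log2 difference, SB431542 with TGF-beta2 minus TGF-beta2 alone; black bars are list medians, dashed lines mark 2-fold, and orange and blue points lie past it. Points of the Id and BMP list lie to the right, with a median of 0.52, those of the immediate early list to the left, with a median of −0.57, and the collagen and contractile rows are narrow.

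Many genes are read by several probe sets in the same RNA, which give a further reading of a difference, though not of another culture. Whether probe sets of a gene overlap or share probes was not checked. Of the 139 lower genes 59 had several kept probe sets, and in 49 of these all lay below 0. Their 87 other probe sets had a median of −0.84, 76 lay below 0 and 38 were at least 2-fold lower. Of the 8320 other probe sets of all genes, 48.8% lay below 0 and 1.21% were at least 2-fold lower. Of the 72 higher genes 20 had several, and in 15 all lay above 0. Their 29 other probe sets had a median of 0.56, 24 lay above 0 and 4 were at least 2-fold higher, against 51.2% and 0.721% of the 8320. The remaining 80 lower and 52 higher genes rest on 1 probe set each. Signals on both compared arrays reached the filter level for 106 lower and 44 higher genes.

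The genes in this paragraph lie outside the lists and were chosen after their values had been seen. Runx1, a Runt-domain transcription factor, read 1846 untreated, 4360.1 with TGF-beta2, 979 with SB431542 and 2249 with oxozeaenol in its brightest probe set. Of its 6 probe sets 5 were at least 2-fold lower, from −2.39 to −1.21, and the dimmest differed by 0.53. Nfatc1, a calcium-regulated transcription factor, had all 5 probe sets below 0, from −1.86 to −0.54. Ccn4, a secreted matrix-associated protein, read 10086 with TGF-beta2 and 4041 with SB431542, with probe sets at −1.31 and −1.29. Fbxo32, a ubiquitin ligase component, had 3 probe sets between −1.97 and −1.35 and read 984 with oxozeaenol against 631 with TGF-beta2. The related kinase genes Nuak1 (−1.37) and Nuak2 (−1.69) were both lower, from 1 probe set each.

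**Figure D5:**
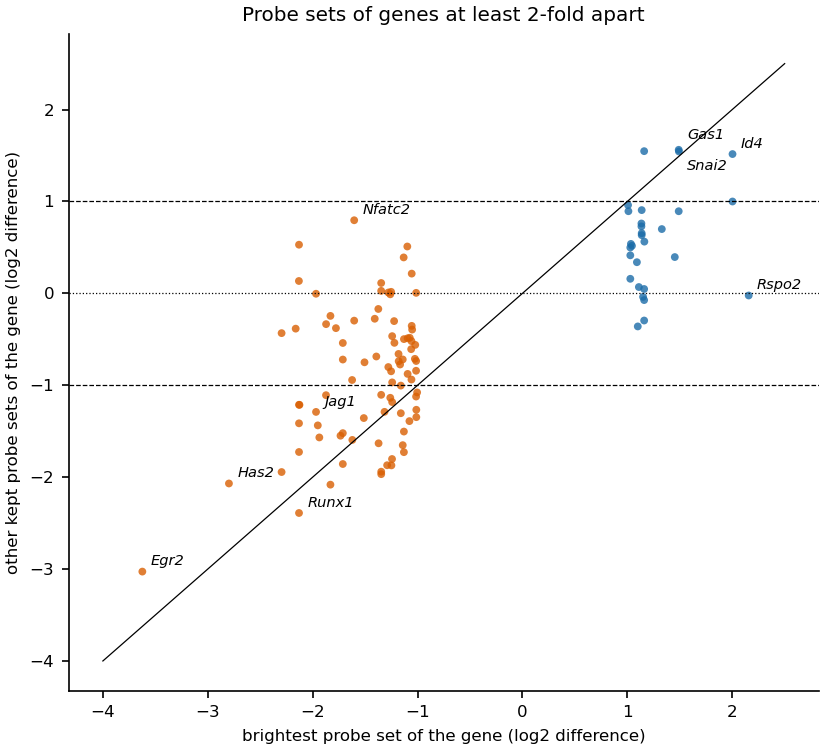
Each point is a further kept probe set of a gene at least 2-fold apart, with the log2 difference of the gene's brightest probe set on the horizontal axis and its own on the vertical axis; the solid line marks equal values and dashed lines 2-fold. Of 87 points on the lower side 76 lie below 0, and of 29 on the higher side 24 lie above 0, with Rspo2 and Nfatc2 among the exceptions.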

How the data were processed

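RNA of 4 cultures was hybridised to 1 Affymetrix 3′ expression array each, from 500 ng of total RNA, per the labels' protocols. The authors deposited a linear intensity for each of 45101 probe sets. GCOS is named in the submitters' processing notes, without a version, and the summary method is not stated in those notes as used here. Detection calls were not used. Here, 64 controls were dropped, and 34945 of 45037 remaining probe sets with a single symbol in the platform annotation were used (932 had several, 9160 none).

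Intensities were converted to log2(signal + 21.7). The filter required the mean log2 level across the 4 arrays to be at least the median over probe sets that are not controls. The brightest of 20064 passing probe sets stood for its gene. With 1 array a group, which limits the precision, genes were called by size alone, at 2-fold. The named genes are the 20 largest differences in each direction with all probe sets on the same side, list members at least 2-fold apart, members of the ligand, receptor and Smad lists, and up to 4 further members of a list with the highest mean signal. The comparison, its lists and this rule were chosen with earlier results of these data known. Counting was tested on simulated data. Alternatives covered the pseudocount, filter, scaling and choice of probe set. Analyses used Python 3.11.15, pandas 2.3.3, numpy 2.4.6 and statsmodels 0.14.6.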

Additional observations from a re-analysis of the deposited data

How the results depend on the processing

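No paired analysis was possible because each group held 1 array. Against 72 higher and 139 lower genes as reported, the pseudocount at the median of all values gave 31 and 86, no filter gave 463 and 405, of which 53.3% were higher against 34.1% as reported, and a filter at the 75th percentile gave 22 and 62. Requiring both arrays to reach the filter level, an alternative added after seeing the data, gave 44 higher genes and 106 lower ones. The pseudocount at the 10th percentile, median centring, quantile normalization, removal of the brightness trend, the median over a gene's probe sets and a filter on the mean linear signal, also added later, kept the higher count between 62 and 107 and the lower count between 122 and 161. With the brightness trend removed, all 139 lower genes stayed at least 2-fold lower and 64 of the 72 higher genes at least 2-fold higher. Under median centring all 139 and all 72 did so, and the median over all genes moved only from 0.0312 to 0.0295. Before these steps the median difference lay above 0 at every brightness, from 0.01 to 0.08 in groups of 2936 genes. Both steps thus mostly moved differences down and could hardly cost a lower gene, so they say little about the stability of that side. Dropping the filter could not test which genes stay, because the brightest probe set of a measured gene stays the same. Of the 139 genes, quantile normalization kept 133 at least 2-fold lower and taking the median over probe sets kept 115. Raising the pseudocount kept 86, and the stricter filter kept 62. Of the 72 higher genes, the same 4 alternatives kept 67, 58, 30 and 22 at least 2-fold higher. Of 73 named genes at least 2-fold apart, 32 had no value with the filter at the 75th percentile and 12 had none where both arrays had to reach the filter level, and 28 had a value and stayed past 2-fold under all 8 alternatives other than the 2 added later. No direction turned where a value existed, 12 came within 2-fold under the higher pseudocount and 12 under the median over probe sets, where Pdgfra had the smallest value, 0.05. Of 35 list medians 27 moved by less than 0.1 under every alternative, and with the filter at the 75th percentile that of the EGF receptor list was −0.84, NF-kappaB 0.33, Notch −0.53, clock −0.51 and BMP ligands −0.03. Dim genes are limited by the pseudocount and by 1 array a group.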
